A study of Mus musculus with 6 samples.

Results

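The 32 genes described here are genes that astrocytes are known for in the healthy or the injured nervous system, and they were followed in the lumbar spinal cord of mice after a course of morphine. They were chosen by gene symbol from a table of 52513 genes, and every symbol matched 1 row. For the description they were sorted into 5 classes by their known roles: 4 identity genes, 9 homeostatic genes of transport and cell contact, 4 metabolic genes, 4 genes of secreted proteins and 11 reactive genes. The cords came from wild-type mice that were injected intrathecally, that is into the fluid around the cord, with morphine (10 µg in 10 µL) or with saline for 7 days, and segments L4 to L5 were taken. There were 3 morphine libraries and 3 saline libraries of total RNA, made with a stranded kit. The sources used here give no strain, sex or age of the mice, and they do not say whether the libraries came from separate animals or from pools of animals. Each library's description is the group name with a run of numbers, which is shorter in morphine 3 and saline 3. What the numbers count is not stated, so pooling of unequal size is possible. The p-values therefore measure only the spread between these libraries.

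Astrocytes clear glutamate and potassium from around synapses, take up water at their endfeet on blood vessels, store glycogen and turn glutamate into glutamine. They are joined to each other by gap junctions and secrete lipoproteins and protease inhibitors. After injury, infection or nerve damage they become reactive: the intermediate filament genes Gfap and Vim rise, and depending on the stimulus so do acute phase, complement and cytokine receptor genes, many of them through the transcription factor STAT3. In the rodent cord, rises of Gfap have been studied in connection with opioid tolerance.

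Promoter windows of 300 bases (250 bases before and 50 after the annotated start, RefSeq, GRCm38.p6) were on hand for 27 of the 32 genes. Those of 5 genes are printed: Aldoc, Agt and Aspg, which had higher values after morphine, Slc1a2, which had lower values, and Gfap, the usual marker of reactivity. All run 5′ to 3′ along the gene. Capitals mark a STAT element (TTCNNNGAA, which reads the same on both strands) in Agt and Gfap and a half-site of the nuclear factor I family (TTGGCA, or TGCCAA on the other strand) in Aldoc, and the windows of Aspg and Slc1a2 held neither. The windows lie at chr11:78322823-78323122 on the plus strand for Aldoc, chr8:124569657-124569956 on the minus strand for Agt, chr12:112106433-112106732 on the plus strand for Aspg, chr2:102706188-102706487 on the plus strand for Slc1a2 and chr11:102897151-102897450 on the minus strand for Gfap.
Aldoc: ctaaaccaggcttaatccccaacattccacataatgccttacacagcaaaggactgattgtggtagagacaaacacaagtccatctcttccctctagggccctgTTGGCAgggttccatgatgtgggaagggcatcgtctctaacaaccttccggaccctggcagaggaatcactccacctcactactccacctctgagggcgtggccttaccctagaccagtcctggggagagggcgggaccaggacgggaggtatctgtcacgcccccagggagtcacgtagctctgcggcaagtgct
Agt: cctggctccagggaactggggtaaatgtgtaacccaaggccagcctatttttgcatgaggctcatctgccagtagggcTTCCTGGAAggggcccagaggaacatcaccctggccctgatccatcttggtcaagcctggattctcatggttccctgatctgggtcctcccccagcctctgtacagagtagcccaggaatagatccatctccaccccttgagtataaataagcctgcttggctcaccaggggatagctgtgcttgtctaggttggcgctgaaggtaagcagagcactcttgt
Aspg: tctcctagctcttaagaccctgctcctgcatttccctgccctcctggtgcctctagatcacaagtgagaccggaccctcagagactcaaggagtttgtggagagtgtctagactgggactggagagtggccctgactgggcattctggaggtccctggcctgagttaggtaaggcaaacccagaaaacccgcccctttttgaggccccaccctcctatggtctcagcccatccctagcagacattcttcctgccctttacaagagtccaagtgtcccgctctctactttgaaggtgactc
Slc1a2: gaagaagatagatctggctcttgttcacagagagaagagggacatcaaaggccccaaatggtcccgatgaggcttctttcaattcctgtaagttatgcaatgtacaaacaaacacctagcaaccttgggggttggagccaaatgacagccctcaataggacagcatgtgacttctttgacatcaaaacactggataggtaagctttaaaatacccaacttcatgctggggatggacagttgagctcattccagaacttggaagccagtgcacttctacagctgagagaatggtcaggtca
Gfap: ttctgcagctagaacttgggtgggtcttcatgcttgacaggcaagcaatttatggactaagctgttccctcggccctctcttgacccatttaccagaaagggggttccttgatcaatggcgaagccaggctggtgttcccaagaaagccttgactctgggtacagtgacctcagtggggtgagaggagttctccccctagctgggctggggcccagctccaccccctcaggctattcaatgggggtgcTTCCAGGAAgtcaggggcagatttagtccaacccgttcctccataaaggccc
The STAT element was found in 4 of 27 windows (Slc1a3, Agt, Gfap and Steap4), which is 14.8%, against 8.3% of 32851 windows of all genes. The nuclear factor I half-site was found in 6 of 27 windows (22.2%, against 14.1% of all windows), and a SOX site (ACAAAG on either strand), searched because Sox9 is a member, was found in 3 (11.1%, against 18.7%). Counted from the annotated start, the first base of the element lies at position -172 in Agt and at position -2 in Gfap, and that of the half-site lies at -146 in Aldoc. A match is a run of letters and not a measured binding site. Of the printed windows, those of Slc1a2 and Gfap lie inside their genes, whose outermost annotated starts are at 102658659 and 102900912, so they describe an internal start. Among the windows counted but not printed, those of Id3, Mlc1, Hepacam, Aldh1l1, Vim, Lcn2 and Osmr also lie inside their genes. The half-site matches of Hepacam, Lcn2 and Osmr are thus at internal starts. In 20 of the 27 windows the last 30 bases lay in an annotated transcript of the gene.

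Values are FPKM, fragments scaled to transcript length and to sequencing depth, so levels can be compared between genes per length. The depth, worked out from the spacing of low FPKM values, was 17.8 to 19.9 M fragments in morphine libraries and 21.2 to 26.1 M fragments in saline libraries. A gene was tested when 3 or more of the 6 libraries reached 1 FPKM, which held for 14614 genes. Differences were tested with limma on log2(FPKM + 1), all log2 fold changes are morphine minus saline on that scale, and for genes near 1 FPKM the added 1 makes them smaller than the ratio of the means. The 6 libraries held motor neuron markers unequally, with summed levels of 8 motor and cholinergic genes of 146, 233 and 118 FPKM in morphine 1, 2 and 3, against 250, 234 and 126 FPKM in saline 1, 2 and 3. The sums understate this, because Ache alone was level at 101 ± 1.59 FPKM in morphine and 101 ± 1.08 in saline (SD, n = 3 each). Slc5a7 was at 4.62, 18.27 and 1.86 FPKM in morphine 1, 2 and 3, against 22.85, 20.38 and 3.70 FPKM in saline 1, 2 and 3.

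All 32 genes were above 0 in every library, and 29 passed the filter. Steap4, Osmr and Timp1 did not. Per length the most abundant was Apoe, the main apolipoprotein of brain lipoproteins, at 2139, 2258 and 2055 FPKM in morphine 1, 2 and 3, against 2102, 2282 and 1935 FPKM in saline 1, 2 and 3. The saline libraries held both its highest and its lowest value. It was followed by Cst3, the protease inhibitor cystatin C, at 1585, 1705 and 1642 FPKM in morphine 1, 2 and 3, against 1536, 1603 and 1525 FPKM in saline 1, 2 and 3, with morphine 1 below saline 2. Aldoc, S100b, Glul and Gfap came next in mean level, all above 380 FPKM in each library, and the ranges of S100b, Glul and Gfap overlapped one another. Steap4, a metalloreductase induced in reactive astrocytes, was the lowest at 0.11 FPKM or less, which is about 2 to 6 fragments per library. RNA of other cell types was in the libraries as well, with the neuronal Snap25 at 1643 ± 115 FPKM in morphine and 1618 ± 158 in saline (SD, n = 3 each). Apoe, Cst3, Clu, Vim, Cd44, C4b and Timp1 are also made by microglia, vessel cells, meningeal cells or neurons. In such bulk tissue fewer cells of a type and less RNA per cell cannot be told apart.

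**Figure D1:**
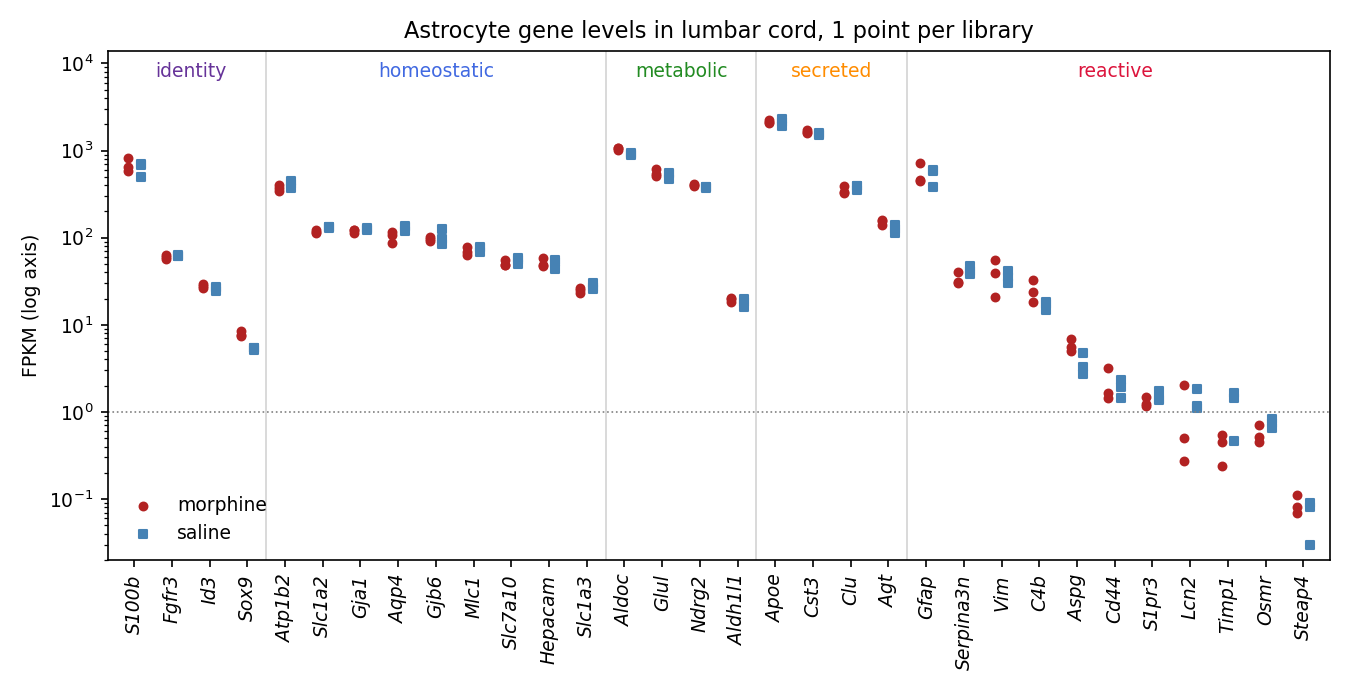
Level of the 32 genes in FPKM on a log axis, by class and in falling order within each class, with 1 point per library (red circles, morphine; blue squares, saline). The dotted line marks 1 FPKM, the level set for testing: Timp1, Osmr and Steap4 did not reach it in 3 libraries, while the 2 groups lie close together for most genes.

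Of the 29 tested genes, 1 differed between morphine and saline: Sox9 rose. This is 3.45% of the tested members, and 1.51% of all tested genes were called at limma's adjusted p under 0.05 (0.944% higher and 0.561% lower after morphine). An unadjusted p under 0.05 was found for 8 of the 29 genes (27.6%), beside 22.3% of all tested genes, with Sox9, Aldoc, Agt, C4b and Aspg higher and Aqp4, Slc1a2 and Serpina3n lower. The groups did not overlap in 8 of 29 genes (27.6%), beside 28.7% of all tested genes. Morphine lay above saline in 5 of them (13.0% of all tested genes) and below it in 3 (15.7% of all tested genes). In these counts the astrocyte genes as a whole lay near the background. Their median log2 fold change was 0.03, beside -0.02 for all tested genes, and it was negative with the values rescaled to a common total per library (TPM, -0.10) or quantile normalized (-0.12). Rescaling to TPM also moves the median of all genes to -0.13. It divides by the FPKM total of a library, which was 720234 to 741145 in morphine libraries and 662470 to 670280 in saline libraries.

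**Figure D2:**
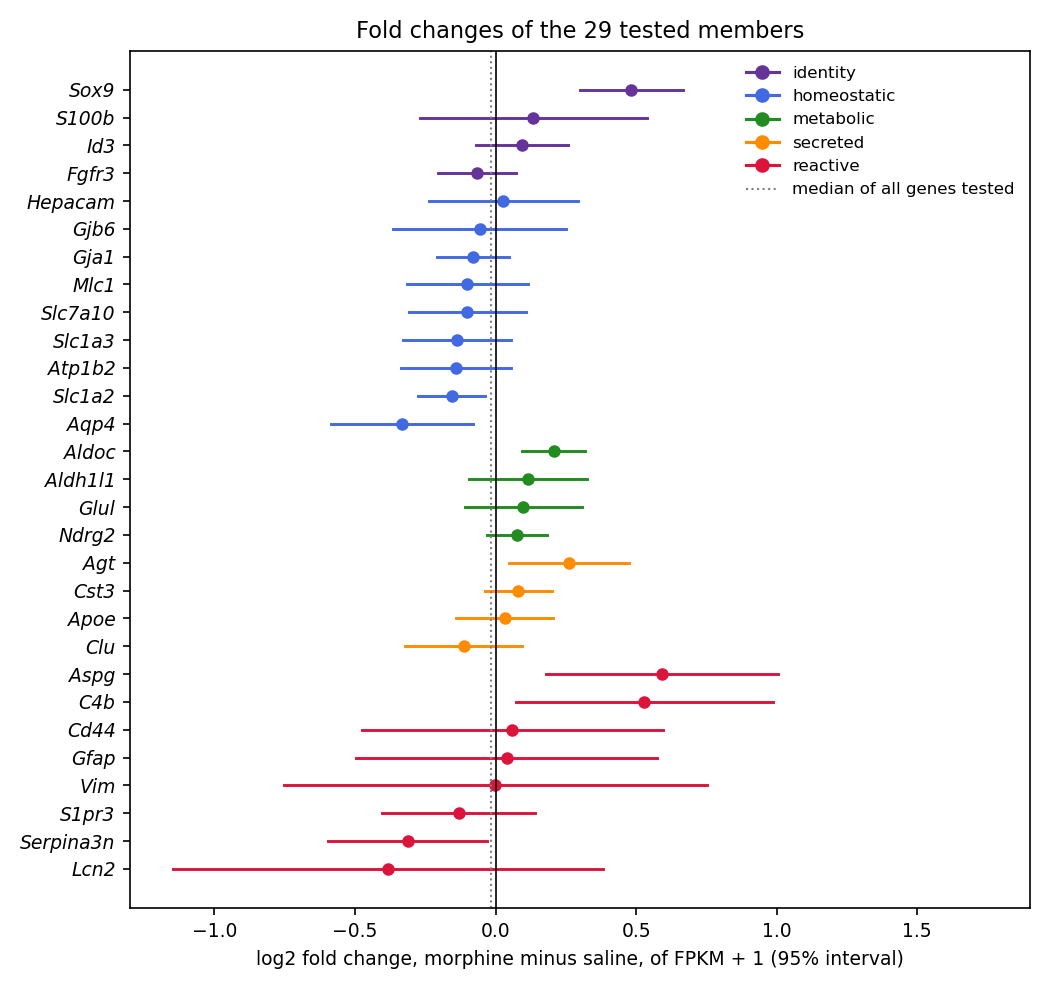
Log2 fold change (morphine minus saline, of FPKM + 1) of the 29 tested genes with 95% intervals from limma, coloured by class, with the median of all tested genes as a dotted line. The interval of Sox9 runs from 0.30 to 0.67, 8 of 9 homeostatic genes lie below 0, all 4 metabolic genes lie above it, and the reactive genes spread to both sides.

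The identity class holds transcription and signalling genes that set and mark the astrocyte. Sox9, the transcription factor that starts gliogenesis in the cord and stays on in astrocytes and ependymal cells, was at 7.55, 8.47 and 7.50 FPKM in morphine 1, 2 and 3, against 5.41, 5.37 and 5.17 FPKM in saline 1, 2 and 3. The lowest morphine value was above the highest saline value. It was 1.47-fold higher after morphine (log2 fold change 0.48, SE 0.08, 95% interval 0.30 to 0.67, limma adjusted p = 0.0463), with about 545 to 591 fragments in morphine libraries and 430 to 548 in saline libraries. Sox9 lies on chromosome 11 from 112782224 to 112787760 on the plus strand of mm10 as 1 transcript of 4135 nt, and shares no exonic base with another annotated gene. The call sits near the threshold: leaving out 1 library kept the log2 fold change between 0.43 and 0.51, but the adjusted p was 0.107 to 0.153 without any library other than morphine 2, and 0.0399 without morphine 2. It was also 0.0591 with the replicate number as a block, 0.0992 with no filter, 0.0611 with no intensity trend and 0.0552 with the length trend removed. Ependymal cells line the central canal and make Sox9 too. Their 9 markers summed to 27.9, 28.6 and 26.0 FPKM in morphine 1, 2 and 3, against 24.7, 21.8 and 19.9 FPKM in saline 1, 2 and 3. Of these markers 5 were tested and 1 passed, Ccdc153, at 1.36, 1.25 and 1.83 FPKM in morphine 1, 2 and 3, against 0.11, 0.53 and 0.08 FPKM in saline 1, 2 and 3 (limma adjusted p = 0.0488). Ccdc153 and Dynlrb2 reached 1 FPKM in the morphine libraries alone, so they entered the test only through the group in which they were high. Their direction was thus set by the filter (Dynlrb2 log2 fold change 0.78, limma adjusted p = 0.0755). The other tested markers, Foxj1, Rarres2 and Rsph1, were at 0.03, 0.03 and 0.41, with overlapping groups. Foxj1, which defines these cells, was at 9.85 ± 1.28 FPKM in morphine and 9.67 ± 1.43 in saline (SD, n = 3 each). Fitted with no filter, the markers under it were at 0.50 (Tmem212), 0.35 (Ak7), 0.08 (Hydin) and -0.08 (Dnah11). The part of ependymal cells in the rise of Sox9 was not tested.

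The other identity genes did not pass. Id3, an inhibitor of basic helix-loop-helix factors, was at 27.7 ± 1.55 FPKM in morphine and 25.9 ± 1.33 in saline (SD, n = 3 each). Fgfr3, a growth factor receptor of astrocytes and their precursors, was at 59.3, 62.8 and 56.2 FPKM in morphine 1, 2 and 3, against 61.4, 63.6 and 61.7 FPKM in saline 1, 2 and 3. Morphine 2 lay within the saline values, and 998 exonic bases of Fgfr3 are shared with the antisense gene G630022F23Rik. S100b, a calcium-binding protein of astrocytes that oligodendrocytes and some neurons also make, was at 649, 825 and 576 FPKM in morphine 1, 2 and 3, against 684, 693 and 492 FPKM in saline 1, 2 and 3. Its spread between libraries of 1 group was larger than the difference between the groups (log2 fold change 0.13, 95% interval -0.27 to 0.54, limma adjusted p = 0.682). The median of the class was 0.12, and -0.01 after rescaling to TPM.

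The homeostatic class leaned the other way. Of its 9 genes, 8 had a log2 fold change below 0, beside 7765 of 14614 tested genes, and 0 were called by limma over all genes. An unadjusted p under 0.05 was found for 2 of the 9, beside 22.3% of all tested genes in either direction. These 2 were lower, beside 1618 of 14614 tested genes. The median of the class was -0.10, and it was between -0.23 and -0.09 under the 3 other scalings. Aqp4, the water channel of astrocyte endfeet, was at 87.2, 116 and 106 FPKM in morphine 1, 2 and 3, against 136, 132 and 121 FPKM in saline 1, 2 and 3. The highest morphine value was below the lowest saline value, and the mean was 1.26-fold lower after morphine (log2 fold change -0.33, SE 0.11, 95% interval -0.59 to -0.08, limma adjusted p = 0.134). Without morphine 1, its lowest library, the log2 fold change of Aqp4 was -0.22. Slc1a2, the glutamate transporter GLT-1 that does most of the glutamate uptake in the forebrain and cord, was at 114, 122 and 117 FPKM in morphine 1, 2 and 3, against 133, 132 and 128 FPKM in saline 1, 2 and 3. Here too the groups did not overlap, and the difference was small (1.11-fold lower, log2 fold change -0.16, SE 0.05, 95% interval -0.28 to -0.04, limma adjusted p = 0.136). Rescaled to TPM, the log2 fold change of Slc1a2 was -0.28 and passed (adjusted p = 0.0406), and with the length trend removed it was -0.07 (adjusted p = 0.575). Slc1a2 lies on chromosome 2 from 102658659 to 102790784 on the plus strand, and 189 of its exonic bases are shared with the antisense gene Gm13872. The kit keeps strand, but the sources used here do not say whether the counting used it, so fragments of such overlaps may belong to either gene. Of markers of the vessel wall, which astrocyte endfeet cover, 4 of 8 endothelial and 4 of 6 tested pericyte and smooth muscle markers were lower at an unadjusted p under 0.05, beside 1618 of 14614 tested genes, and 0 were called by limma. In the other direction Cspg4, in the pericyte list, was higher at an unadjusted p under 0.05 (log2 fold change 0.22, limma adjusted p = 0.209), and the endothelial Cldn5 was at 0.11. Summed, the 8 endothelial markers were at 101, 125 and 107 FPKM in morphine 1, 2 and 3, against 120, 127 and 112 FPKM in saline 1, 2 and 3, and blood cell markers summed to 423, 483 and 598 FPKM in morphine 1, 2 and 3, against 842, 763 and 1083 FPKM in saline 1, 2 and 3. Of 7 tested blood cell markers all were below 0 and 1 fell, the haemoglobin gene Hbb-bt (limma adjusted p = 0.0453). The part of vessels and blood in the values of the endfoot genes was not tested.

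Gja1, the gap junction protein connexin 43, was the 1 other homeostatic gene whose groups did not overlap, at 113, 121 and 123 FPKM in morphine 1, 2 and 3, against 129, 125 and 124 FPKM in saline 1, 2 and 3. The gap between the highest morphine library and the lowest saline library was about 1 FPKM, and the log2 fold change was -0.08 (95% interval -0.21 to 0.05, limma adjusted p = 0.428). Gjb6, connexin 30, was at 97.2 ± 4.22 FPKM in morphine and 102 ± 20.1 in saline (SD, n = 3 each). Slc1a3, the glutamate transporter GLAST, was at 24.98 ± 1.79 FPKM in morphine and 27.6 ± 2.08 in saline, well below Slc1a2 per length. Atp1b2, the beta-2 subunit of the sodium pump that glia use for potassium uptake, was at 347, 399 and 374 FPKM in morphine 1, 2 and 3, against 447, 417 and 374 FPKM in saline 1, 2 and 3. Saline 3 lay at the level of morphine 3, so the groups overlapped. Mlc1 and Hepacam, a pair of membrane proteins of the astrocyte endfoot that bind each other, were at 69.5 and 51.8 FPKM in morphine and at 74.4 and 50.8 FPKM in saline. Slc7a10, the transporter Asc-1 of small neutral amino acids such as glycine and D-serine, was at 50.8 ± 4.68 FPKM in morphine and 54.4 ± 4.34 in saline, and shares 377 exonic bases with Lrp3 on the opposite strand. The groups of Gjb6, Slc1a3, Atp1b2, Mlc1, Hepacam and Slc7a10 overlapped, and their limma adjusted p-values ran from 0.360 to 0.905.

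The 4 metabolic genes all had a log2 fold change above 0, beside 6849 of 14614 tested genes. Their median of 0.11 was -0.02 after rescaling to TPM and -0.03 after quantile normalization. Of the 4, 0 were called by limma over all genes, and 1 had an unadjusted p under 0.05, beside 22.3% of all tested genes. Aldoc, the brain isoform of the glycolytic enzyme aldolase and a marker of astrocytes, was at 1082, 1019 and 1059 FPKM in morphine 1, 2 and 3, against 927, 897 and 913 FPKM in saline 1, 2 and 3. Aldoc lies on chromosome 11 from 78322968 to 78327781 on the plus strand and shares no exonic base with another annotated gene. Its groups lay well apart for their spread (1.15-fold higher, log2 fold change 0.21, SE 0.05, 95% interval 0.10 to 0.32), and limma's adjusted p was 0.0675. Ndrg2, a stress-responsive astrocyte gene with an alpha/beta hydrolase fold, was at 404, 410 and 391.7 FPKM in morphine 1, 2 and 3, against 377, 386 and 380 FPKM in saline 1, 2 and 3, again without overlap (log2 fold change 0.08, 95% interval -0.03 to 0.18, limma adjusted p = 0.359). With TPM or quantile scaling its log2 fold change was -0.05 or -0.09, so its direction is not settled. Glul, glutamine synthetase, was at 539, 621 and 517 FPKM in morphine 1, 2 and 3, against 549, 541 and 476 FPKM in saline 1, 2 and 3. Its groups overlapped (log2 fold change 0.10, limma adjusted p = 0.552). Aldh1l1, a folate enzyme used as a pan-astrocyte marker, was at 19.5 FPKM in morphine and 17.9 FPKM in saline on average, with overlap between the groups. Aldh1l1 shares 499 exonic bases with the antisense gene Gm15756.

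Among the secreted proteins, 0 were called by limma over all genes and 1 had an unadjusted p under 0.05. Agt, angiotensinogen, which astrocytes make in the brain and cord, was at 154, 159 and 139 FPKM in morphine 1, 2 and 3, against 126, 139 and 113 FPKM in saline 1, 2 and 3. Morphine 3 and saline 2 were level, so the groups overlapped. Its gene is on the minus strand of chromosome 8, between 124556534 and 124569706. The mean was 1.20-fold higher after morphine (log2 fold change 0.26, SE 0.09, 95% interval 0.05 to 0.47, limma adjusted p = 0.157). Apoe and Cst3, whose levels are given above, had log2 fold changes of 0.03 and 0.08. Clu, clusterin, an apolipoprotein and chaperone, was at 351 ± 37.6 FPKM in morphine and 379 ± 25.1 in saline (SD, n = 3 each, log2 fold change -0.11, limma adjusted p = 0.489). The median of the class was 0.06, and it was below 0 after rescaling to TPM (-0.07), after quantile normalization (-0.11) and with the length trend removed (-0.04).

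The reactive genes pointed both ways. Of 11 genes 8 were tested, 0 were called by limma over all genes, and 2 were higher and 1 lower at an unadjusted p under 0.05. Of the 8, 4 had a log2 fold change above 0 and 4 below it, and the median was 0.02. The median is not a stable direction: it was -0.11 after rescaling to TPM, -0.07 after quantile normalization and -0.19 without morphine 2.

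Gfap, the intermediate filament protein that defines reactive astrocytes, was at 455, 711 and 445 FPKM in morphine 1, 2 and 3, against 594, 579 and 386 FPKM in saline 1, 2 and 3. Morphine 2 held the highest value and saline 3 the lowest, and between them saline 1 and 2 lay above morphine 1 and 3. The log2 fold change was 0.04, with a 95% interval of -0.50 to 0.57 that takes in changes in both directions (limma adjusted p = 0.934). The log2 fold change was -0.18 without morphine 2 and -0.16 without saline 3. Vim, vimentin, the second filament gene of reactive astrocytes, which vessel and meningeal cells also make, was at 39.1, 55.3 and 20.8 FPKM in morphine 1, 2 and 3, against 35.6, 41.9 and 30.4 FPKM in saline 1, 2 and 3, and both the highest and the lowest value were in morphine libraries.

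C4b and Aspg had higher values after morphine, at an unadjusted p under 0.05. C4b, the complement component C4, was at 24.0, 32.95 and 18.5 FPKM in morphine 1, 2 and 3, against 14.7, 18.3 and 17.2 FPKM in saline 1, 2 and 3. The groups did not overlap, but morphine 3 lay only just above saline 2. The mean was 25.1 ± 7.30 FPKM in morphine and 16.7 ± 1.86 in saline (SD, n = 3 each, log2 fold change 0.53, SE 0.19, 95% interval 0.07 to 0.99, limma adjusted p = 0.174), and C4b, on the minus strand of chromosome 17 between 34728380 and 34743882, has a near-identical neighbouring copy, C4a, so how fragments were split between the copies is uncertain. Aspg, an asparaginase found among the genes that reactive astrocytes raise, was at 5.57, 6.88 and 5.04 FPKM in morphine 1, 2 and 3, against 2.75, 4.71 and 3.26 FPKM in saline 1, 2 and 3. Aspg lies on chromosome 12 from 112106679 to 112127559 on the plus strand. Its ratio of means was the largest among the tested members, 1.63-fold higher without overlap (log2 fold change 0.59, SE 0.17, 95% interval from 0.18, limma adjusted p = 0.110). With 1 library left out the log2 fold change of Aspg ranged from 0.46 to 0.76 and that of C4b from 0.32 to 0.72.

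Serpina3n, a secreted serine protease inhibitor that rises in reactive astrocytes after most insults, had lower values. It was at 30.6, 39.9 and 31.2 FPKM in morphine 1, 2 and 3, against 41.2, 46.8 and 38.5 FPKM in saline 1, 2 and 3. Morphine 2 lay above saline 3, and the other 2 morphine libraries lay below all saline libraries. The mean was 1.24-fold lower after morphine (log2 fold change -0.31, SE 0.12, 95% interval -0.59 to -0.03, limma adjusted p = 0.187). Serpina3n belongs to a cluster of closely related inhibitor genes on chromosome 12, where it spans 104406729 to 104414329 on the plus strand, so the division of fragments among them is uncertain.

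The other reactive genes were low. Lcn2, lipocalin 2, an iron-binding acute phase protein, was at 0.50, 2.05 and 0.27 FPKM in morphine 1, 2 and 3, against 1.84, 1.10 and 1.16 FPKM in saline 1, 2 and 3. This is about 6 to 46 fragments per library, and the 95% Poisson interval of the lowest library, morphine 3, runs from 2.2 to 13.1 fragments (counting error only). Cd44, a hyaluronan receptor, was at 1.64, 3.21 and 1.43 FPKM in morphine 1, 2 and 3, against 1.92, 2.35 and 1.44 FPKM in saline 1, 2 and 3, and S1pr3, a receptor of sphingosine-1-phosphate, was at 1.29 ± 0.174 FPKM in morphine and 1.51 ± 0.206 in saline (SD, n = 3 each). Both overlapped between the groups. Timp1, an inhibitor of matrix metalloproteinases, stayed under the filter at 0.45, 0.55 and 0.24 FPKM in morphine 1, 2 and 3, against 1.43, 1.67 and 0.46 FPKM in saline 1, 2 and 3, and rests on about 3 to 29 fragments per library. Its groups overlap only through saline 3, and the exact two-sided permutation test of its FPKM values gave p = 0.2, where 0.1 is the smallest that 3 against 3 allows. Osmr, the oncostatin M receptor, was at 0.553 ± 0.131 FPKM in morphine and 0.743 ± 0.0950 in saline (exact permutation p = 0.2). Steap4 was at 0.0867 ± 0.0208 FPKM in morphine and 0.0667 ± 0.0321 in saline (exact permutation p = 0.6). Vim, Timp1 and Serpina3n are also made by meningeal cells, whose 9 markers summed to 79.1, 129 and 37.0 FPKM in morphine 1, 2 and 3, against 153, 118 and 128 FPKM in saline 1, 2 and 3. Of the 8 tested all had a log2 fold change below 0 and 0 were called by limma (0 at an unadjusted p under 0.05), and their part in the values of these genes was not tested.

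**Figure D3:**
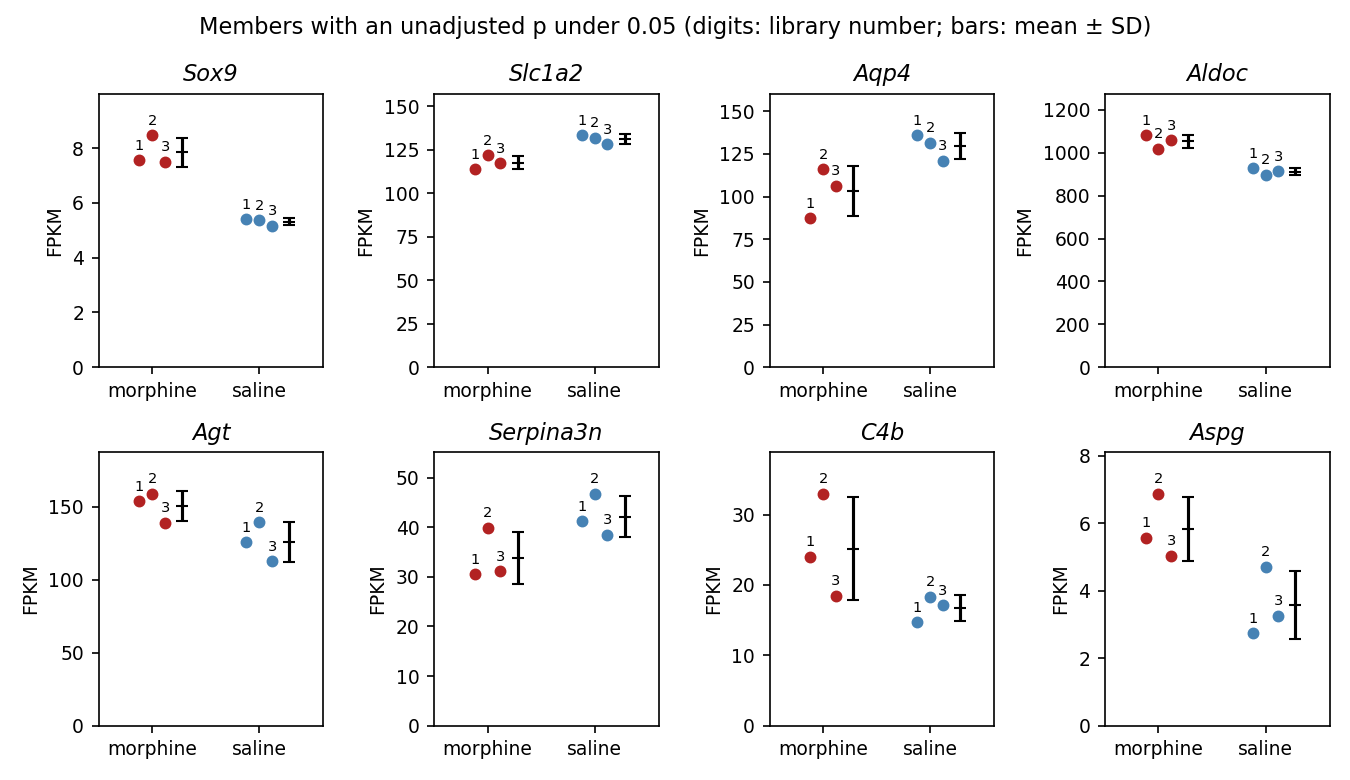
FPKM of the 8 genes with an unadjusted p under 0.05, morphine on the left and saline on the right, with 1 point per library, its number above it and the mean ± SD beside the points, each axis from 0. Sox9, Aldoc, C4b and Aspg lie higher and Aqp4 and Slc1a2 lower in all 3 morphine libraries, while Agt and Serpina3n overlap.

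The members varied together between libraries of 1 group. Among the 3 morphine libraries, morphine 2 had the highest value in 25 of 29 genes, beside 32.3% of all tested genes. Among the 3 saline libraries, saline 3 had the lowest value in 21 of 29 genes, beside 30.2% of all tested genes. Both held for 18 members, beside 16.6% of all tested genes, and all 4 secreted genes were among them. The reactive class varied most: its mean log2(FPKM + 1) was 3.70, 4.21 and 3.49 in morphine 1, 2 and 3, against 3.75, 3.91 and 3.60 in saline 1, 2 and 3. The homeostatic class, at 6.36, 6.504 and 6.43 in morphine 1, 2 and 3, against 6.59, 6.62 and 6.44 in saline 1, 2 and 3, varied less. These patterns were noticed after the values were seen, and libraries of a group have no order.

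Markers of several other cells had the same libraries at their extremes. Morphine 2 highest and saline 3 lowest held for 9 of 9 oligodendrocyte markers, 5 of 5 markers of oligodendrocyte precursors, 6 of 7 motor and cholinergic markers, and 3 of 9 general neuron markers. It held for 6 of 8 meningeal, 4 of 6 pericyte and smooth muscle and 4 of 6 Schwann cell markers. For microglia it was 4 of 9, for endothelial markers 3 of 8, for ependymal markers 2 of 5, for blood cell markers 1 of 7 and for choroid plexus markers 0 of 1. The share of all tested genes was 16.6%. The summed oligodendrocyte markers were 18983, 23804 and 17491 FPKM in morphine 1, 2 and 3, against 21148, 22271 and 15196 FPKM in saline 1, 2 and 3. Summed microglia markers stayed between 221.5 and 263 FPKM in morphine and between 237 and 260 in saline, and markers of Schwann cells ranged from 60.8 to 285 FPKM in morphine and from 138 to 297 in saline. These counts do not test the part of cell content in the values of the astrocyte genes. Fitted with the mean level of the motor list as a term, an alternative chosen after the data were seen, 4 members were called, all higher after morphine, beside 6.12% of all tested genes in that fit (3.5% higher). They were Sox9 (log2 fold change 0.52, limma adjusted p = 0.0339), S100b (0.29, adjusted p = 0.0339), Agt (0.33, adjusted p = 0.0414) and Aldoc (0.20, adjusted p = 0.0473). Gfap was at 0.24 in that fit and did not pass (limma adjusted p = 0.109).

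**Figure D4:**
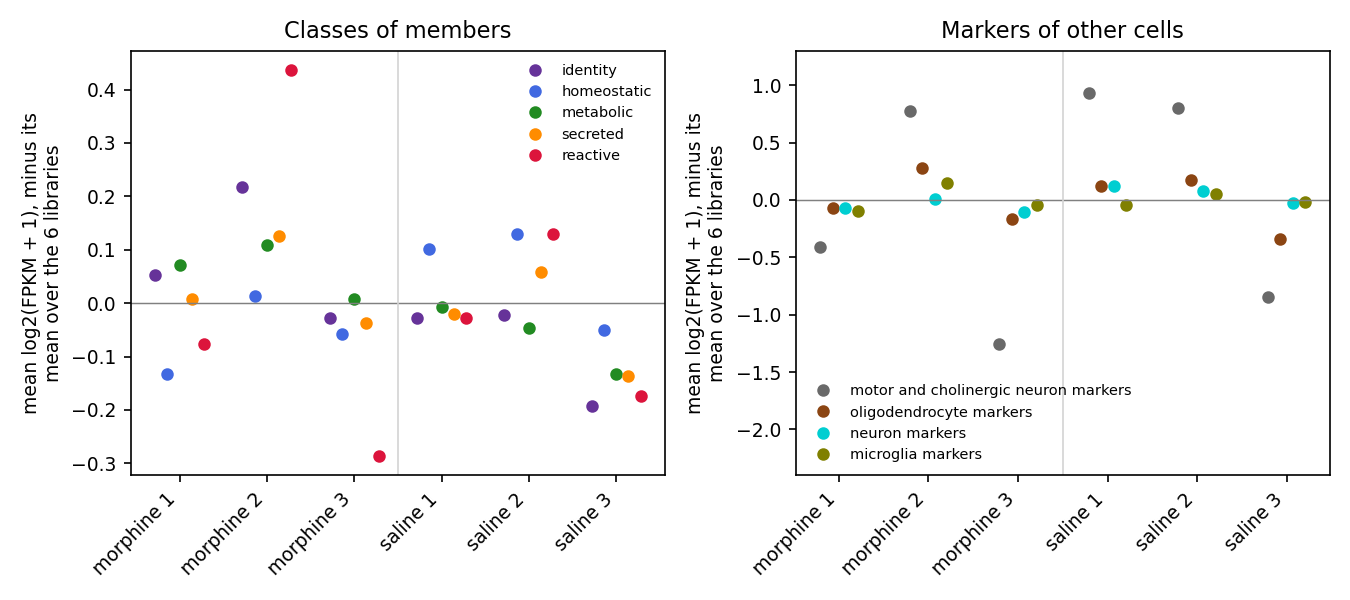
Mean log2(FPKM + 1) of each class of members (left) and of markers of other cells (right) in each library, minus its mean over the 6 libraries, with 1 point per list and library. The reactive class lies 0.44 above its mean in morphine 2 and 0.29 below it in morphine 3, and the motor and oligodendrocyte markers are above their mean in morphine 2, saline 1 and saline 2.

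Fold changes over the whole table became more negative with transcript length (Spearman's rho = -0.31 over 14588 genes, and genes are no independent replicates). The 9 homeostatic genes had a median exonic length of 4085 nt, the 8 tested reactive genes 4340 nt, the metabolic genes 3360 nt and the secreted genes 2014 nt. Slc1a2, with 13133 nt of exonic sequence, and Gja1, with 10257 nt, were the longest of the tested members. With the trend removed, an alternative chosen after the data were seen, Slc1a2 was at -0.07 and Gja1 at 0.00, whereas Aqp4 was at -0.28, Aldoc at 0.20, C4b at 0.58 and Aspg at 0.60 on the log2 scale. In that fit 0 members passed limma's test over all genes, among 33 genes called in all.

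**Figure D5:**
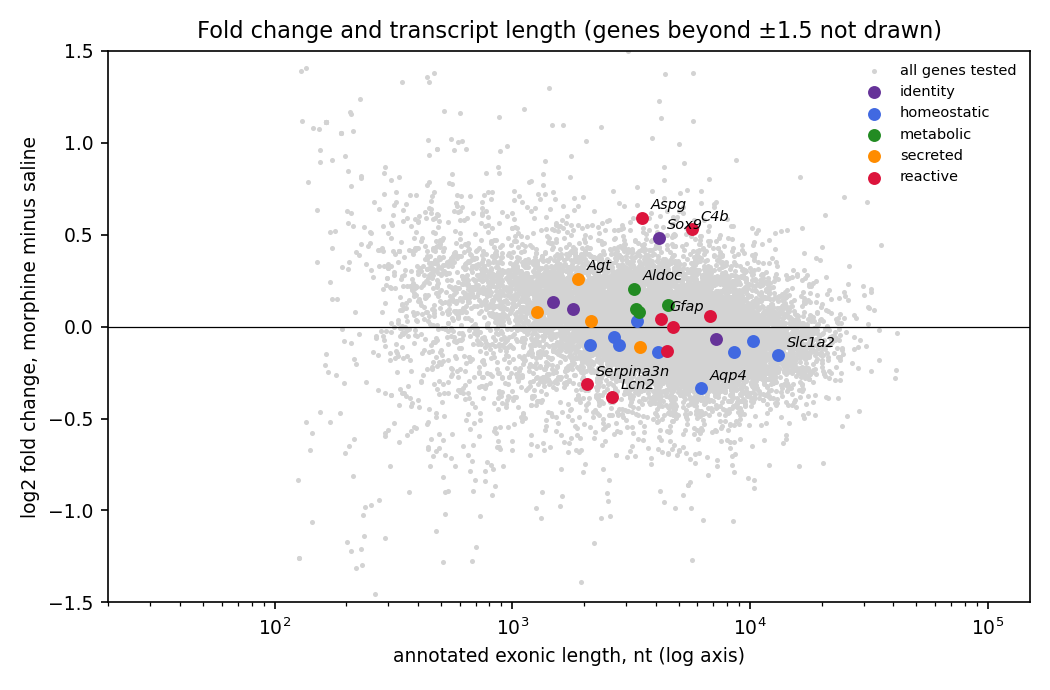
Log2 fold change (morphine minus saline) against annotated exonic length on a log axis for all tested genes (grey) and the 29 tested members (coloured by class), with 10 members named. The grey cloud slopes down with length, the long genes Slc1a2 and Aqp4 lie below 0, and Sox9, C4b and Aspg lie above 0.45 at lengths of 3521 to 5695 nt.

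Further astrocyte genes, listed by role, were read in the same fit. The median log2 fold change of each of the 7 lists below was negative under every setting tried, though its size varied. The median of all tested genes was negative too, at -0.015 in the main fit and -0.132 with TPM scaling. Without saline 1 it was -0.023, beside -0.02 for potassium and water handling. Median exonic length ran from 3187 nt in the other astrocyte genes to 7899 nt in lipoprotein handling, beside 4170 nt for all tested genes. Of 30 other genes enriched in astrocytes 29 were tested, 1 rose and 0 fell by limma's test over all genes, and the median log2 fold change was -0.08. At an unadjusted p under 0.05, 8 were lower and 3 higher. Of all 14614 tested genes, 7765 were below 0, and 1618 were lower and 1643 higher at an unadjusted p under 0.05. Mt3, the brain metallothionein that binds zinc and copper, rose to 914, 905 and 876 FPKM in morphine 1, 2 and 3, against 722, 699 and 658 FPKM in saline 1, 2 and 3 (log2 fold change 0.37, limma adjusted p = 0.0456). The call of Mt3 was lost with the replicate block, with no filter, with no intensity trend, with the length trend removed and with quantile normalization (adjusted p from 0.0521 to 0.127). It was also lost without any library other than morphine 2 (adjusted p from 0.105 to 0.152), and with quantile normalization its log2 fold change was 0.15. Cldn10, a tight junction gene, narrowly missed the threshold at 57.2 ± 0.977 FPKM in morphine and 47.0 ± 1.83 in saline (SD, n = 3 each, log2 fold change 0.28, limma adjusted p = 0.0557). Kcnj10, the potassium channel Kir4.1 of astrocytes and oligodendrocytes, was at 103, 136 and 118 FPKM in morphine 1, 2 and 3, against 174, 167 and 162 FPKM in saline 1, 2 and 3. Its groups lay far apart (log2 fold change -0.50), and it too narrowly missed the threshold, with a limma adjusted p of 0.0567. With TPM scaling, 1 gene of the list was called higher and 6 lower, beside 101 higher and 853 lower among all 14614 tested genes. In the list of potassium and water handling, 8 of 11 genes were below 0 and 0 passed by limma, 3 of them at an unadjusted p under 0.05. These were Kcnj16, the channel subunit that joins Kir4.1, at 25.04 ± 0.825 FPKM in morphine and 30.9 ± 0.429 in saline (SD, n = 3 each, limma adjusted p = 0.0542), and Dmd and Dag1. Dmd and Dag1, dystrophin and dystroglycan, which hold Aqp4 at the endfoot, were at 9.37 and 12.6 FPKM in morphine and at 11.7 and 15.8 FPKM in saline (limma adjusted p = 0.0672 and 0.0785).

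All 10 genes in the list of the glutamate-glutamine cycle had log2 fold changes below 0, beside 7765 of 14614 tested genes. The list leaves out members described above that belong to the cycle: Glul, which was at 0.10, and Slc1a2 and Slc1a3, at -0.16 and -0.14. Of all 14614 tested genes, 1618 were lower and 1643 higher at an unadjusted p under 0.05. Of the 10 genes in the list, 5 were lower at that p and 0 passed by limma over all genes. The median was -0.18, and it was -0.11 with the length trend removed and -0.31 with TPM scaling. Slc38a1, a glutamine transporter of neurons, was at 26.9, 26.6 and 27.2 FPKM in morphine 1, 2 and 3, against 31.05, 29.3 and 32.5 FPKM in saline 1, 2 and 3 (limma adjusted p = 0.121), and Slc38a5, a glutamine transporter of glia, was at 1.36 ± 0.244 FPKM in morphine and 2.04 ± 0.151 in saline (SD, n = 3 each, limma adjusted p = 0.121). Of 12 genes of lipoprotein handling, 1 fell: Scarb1, a receptor of high density lipoproteins, was at 6.46 ± 0.185 FPKM in morphine and 9.08 ± 0.229 in saline (SD, n = 3 each, log2 fold change -0.43, limma adjusted p = 0.0462). The call of Scarb1 was lost under the same 5 settings as that of Mt3 (adjusted p from 0.053 to 0.0992) and without any library other than morphine 2 (adjusted p from 0.105 to 0.155). The median of that list was -0.13. Of 12 genes of glycogen and lactate metabolism 0 passed by limma over all genes, 4 were lower and 1 higher at an unadjusted p under 0.05, and the median was -0.20. The higher one was Ldhb, a subunit of lactate dehydrogenase, at 913 ± 58.8 FPKM in morphine and 705 ± 42.2 in saline (SD, n = 3 each, limma adjusted p = 0.0525), and Pfkfb3, which speeds glycolysis, was at 16.3 ± 0.458 FPKM in morphine and 19.7 ± 0.760 in saline (adjusted p = 0.0750).

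Of 30 other genes linked to reactive astrocytes 23 were tested, 0 were called by limma over all genes, 16 were below 0 and 7 above it, and the median was -0.21. Fkbp5, a glucocorticoid-induced chaperone partner, was the 1 gene at an unadjusted p under 0.05, at 13.5 ± 2.87 FPKM in morphine and 9.89 ± 1.55 in saline (SD, n = 3 each, limma adjusted p = 0.205). With the motor marker term 2 genes of this list were called higher, Fkbp5 (log2 fold change 0.54, limma adjusted p = 0.0339) and S100a10, a calcium-binding protein (0.35, adjusted p = 0.0361). Without that term S100a10 was at 66.8 ± 28.8 FPKM in morphine and 65.4 ± 22.2 in saline (SD, n = 3 each). Gbp2, an interferon-induced GTPase with the next smallest p, was at 1.35 ± 0.444 FPKM in morphine and 1.88 ± 0.136 in saline. Cxcl10, an interferon-induced chemokine under the filter and named after its values were seen, was at 1.51, 2.07 and 0.81 FPKM in morphine 1, 2 and 3, against 0.37, 0.26 and 0.44 FPKM in saline 1, 2 and 3. Of 16 tested genes of JAK-STAT3 and cytokine receptor signalling, 12 were below 0, beside 7765 of 14614 tested genes, and 0 passed by limma. An unadjusted p under 0.05 was found for 4 of the 16, beside 22.3% of all tested genes in either direction. These 4 were lower, beside 1618 of 14614 tested genes. The median of the list was -0.10, and -0.048 with the length trend removed. Stat3, the transcription factor through which many reactive genes are raised, was at 15.0, 17.6 and 14.3 FPKM in morphine 1, 2 and 3, against 22.2, 19.96 and 18.4 FPKM in saline 1, 2 and 3, without overlap (log2 fold change -0.35, limma adjusted p = 0.103). Jak1, a kinase that activates it, was at 29.7 ± 4.02 FPKM in morphine and 37.7 ± 1.62 in saline (SD, n = 3 each, limma adjusted p = 0.109). TPM scaling shifts the median of all genes down as given above, and 853 of 14614 tested genes were called lower with it. Among the lists these were 3 of 16 genes of this one, 3 of 11 of potassium and water handling and 2 of 10 of the glutamate-glutamine cycle. In lipoprotein handling they were 5 of 12 and in glycogen and lactate metabolism 3 of 12. Of the other astrocyte genes 6 of 29 were called lower, and of the other reactive genes 0 of 23.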

How the data were processed

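The authors deposited FPKM values with 2 decimals for 52513 Ensembl genes, in 1 column per library, each named as in a sample's description. The submitters' processing notes list bcl2fastq 2.19.0 together with Trimmomatic, STAR and RSEM, and mm10 as build. Other versions, the annotation and whether counting used strand are not stated in those notes or in the labels. Coordinates, exonic lengths and overlaps were read from GENCODE M21 (mm10). Genes reaching 1 FPKM in 3 or more libraries (14614 of the 28021 above 0) were taken as log2(FPKM + 1). Morphine and saline were compared by limma (version 3.58.1, R 4.3.3) with moderated variances that follow the intensity, two-sided, Benjamini-Hochberg adjusted over all tested genes at 0.05, without a block. Depth and mean fragment length (216 to 221 nt) were set where low values of genes with 1 transcript lay closest to whole fragments: 77.7% to 80.3% came within 0.05 of a whole number, or within rounding, against 12.7% to 17.0% for evenly spread values. Fragments of a gene assume its longest transcript. The fits and the depth estimate were tested on simulated data. Python 3.11.15, pandas 2.3.3, NumPy 2.4.6, SciPy 1.17.1 and matplotlib 3.10.9 did the rest. Other scalings, pseudocounts, filters and variances, a replicate block and leaving out each library were tried, and removal of the length trend and a motor marker term were added after the data were seen.

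The members, their classes and the other lists were chosen with earlier results of these data known. By rule, values in each library are given for members that passed, had an unadjusted p under 0.05 or did not overlap, and for the 2 most abundant of each class, and from other lists up to 4 genes that passed or the 2 with the smallest p are named. Cell type lists are given mainly as sums. Cldn10, Kcnj10, Dag1, Cxcl10, S100a10, Cspg4, Cldn5, Ache, Slc5a7 and the single ependymal markers were chosen with values in view. So were the library values of Lcn2, Cd44, Vim and Timp1.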

Additional observations from a re-analysis of the deposited data

How the results depend on the processing

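Counts of calls depended strongly on the processing, and so did the direction of many small log2 fold changes. Over all genes, 138 were higher and 82 lower. These counts were 101 and 853 with TPM scaling, 47 and 55 with quantile normalization, 387 and 153 with median-of-ratios scaling, 6 and 2 with no filter, 231 and 107 with at least 5 FPKM in 3 libraries, 14 and 22 with no intensity trend, 14 and 19 with the length trend removed and 511 and 383 with the motor marker term. Leaving out 1 library each gave 0 to 531 higher and 1 to 274 lower, with 805 called without morphine 2 and 1 to 8 without any other library. Among members, 1 was higher and 0 lower. The number higher was 2 with median-of-ratios scaling (Sox9 and Aldoc), 4 with the motor marker term, 0 with no filter, no intensity trend or the length trend removed, and 0 to 1 without single libraries, and 1 (Slc1a2) was lower with TPM scaling. The cause was not tested.

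Class medians that moved by more than their spread were, with TPM scaling, identity -0.012, homeostatic -0.228, metabolic -0.019 and secreted -0.072. With quantile normalization they were metabolic -0.033, secreted -0.107 and all members -0.115, with the motor marker term metabolic 0.172, and with the length trend removed secreted -0.04. Without single libraries the medians ranged from 0.014 to 0.191 (identity), -0.181 to -0.082 (homeostatic), 0.058 to 0.16 (metabolic), 0.02 to 0.097 (secreted), -0.189 to 0.184 (reactive) and -0.072 to 0.091 (all members). The medians of the other lists without single libraries ranged from -0.114 to -0.03 (other astrocyte genes), -0.273 to -0.094 (other reactive genes), -0.161 to -0.053 (JAK-STAT3), -0.195 to -0.142 (glutamate-glutamine cycle), -0.133 to -0.02 (potassium and water), -0.184 to -0.103 (lipoproteins) and -0.284 to -0.151 (glycogen and lactate). The calls of Mt3, Scarb1, Ccdc153 and Hbb-bt were all lost without any library other than morphine 2 (adjusted p from 0.0925 to 0.16).

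Members that were not called changed sign as follows. With TPM scaling Id3 was at -0.029, Hepacam -0.099, Glul -0.03, Aldh1l1 -0.007, Ndrg2 -0.051, Apoe -0.097, Cst3 -0.048, Gfap -0.089 and Cd44 -0.03. With quantile normalization S100b was at -0.063, Hepacam -0.013, Glul -0.069, Ndrg2 -0.087, Apoe -0.123, Cst3 -0.091 and Gfap -0.123. With the length trend removed Fgfr3 was at 0.001, Gja1 at 0.000, Apoe at -0.036, Cst3 at -0.043 and Vim at 0.038, and Vim was at 0.012 with median-of-ratios scaling and 0.252 with the motor marker term. Without single libraries S100b ranged from -0.027 to 0.249, Gjb6 from -0.18 to 0.092, Hepacam from -0.067 to 0.091, Apoe from -0.028 to 0.091, Gfap from -0.18 to 0.157, Vim from -0.311 to 0.373 and Cd44 from -0.185 to 0.212.

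With the replicate number as a block, 17 genes were higher and 7 lower, and 0 members were called (Sox9 adjusted p = 0.0591). The labels do not say what the number marks, and the deviations of same-numbered libraries from their group means correlated at -0.13, 0.16 and 0.29, so the numbers were not taken as pairs, and only morphine 3 correlated best with its own number.

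At this depth Steap4, Timp1 and Lcn2 rested on at most 6, 29 and 46 fragments per library.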
